A study of Mus musculus with 2 samples.

Results

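Endothelial nuclei were examined in single-nucleus RNA sequencing of whole mouse kidney late in gestation (E18.5, embryonic days) and after birth (P3, postnatal days). A nucleus was taken as endothelial when at least 3 of the 8 genes Flt1, Ptprb, Tek, Pecam1, Egfl7, Adgrl4, Cyyr1 and Kdr had a unique molecular identifier (UMI, one counted transcript) and their UMIs together made up at least 0.2% of the UMIs of that nucleus. By this rule 1515 of 18673 kept barcodes were endothelial at E18.5 and 1026 of 9289 at P3, together 2541 of 27962. The endothelial share was 8.11% at E18.5 (95% exact binomial interval 7.73 to 8.51) and 11.045% at P3 (10.4 to 11.7). Without barcodes that also passed a marker gate of another kidney cell type, the share was 4.84% (904 nuclei) and 6.76% (628). All intervals given here cover counting error only.

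The study profiled nuclei from snap-frozen kidneys with a 10x Genomics 3′ kit, pooling male and female kidneys in 1 library per age. The E18.5 kidneys were labelled Mycf/f;Mycnf/f on a mixed background with no Cre, so that the floxed Myc and Mycn alleles were not recombined by design. The P3 kidneys were labelled wild type, C57BL/6J, although according to the methods the animals of either age were of mixed background. With 1 library per age no test between ages was possible, and age, genotype, strain, library and the Cell Ranger release in the file header cannot be told apart. The values of both ages are therefore set side by side, with the P3 to E18.5 ratio in all other kept nuclei for comparison. These numbered 17158 at E18.5 and 8263 at P3. Their make-up differed, with 1462 proximal tubule and 1231 podocyte nuclei at E18.5 and 1611 and 346 at P3. Their ratio therefore holds shifts in cell make-up together with any difference between the libraries, which cannot be told apart. Endothelial nuclei held 4967047 UMIs at E18.5 and 4429746 at P3, with a median of 3115 and 3834.5 UMIs per nucleus. The libraries shared 69 barcode sequences, of which 0 were endothelial in both.

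Endothelial cells line every blood and lymphatic vessel, and their identity rests on receptors for VEGF and angiopoietins, on adherens and tight junctions and on transcription factors of the ETS, SOX and KLF families. In the kidney they form arteries, veins, the fenestrated glomerular and peritubular capillaries and the vasa recta, which differ in the permeability and transport they permit. The kidney vasculature is still growing and being remodelled around birth.

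The members were chosen by the counts of the 8 gate genes, so these levels only describe the choice made. Flt1 and Kdr, the receptors for VEGF, stood at 1563 and 248 CPM (UMIs of a gene scaled to a common total in each population) at E18.5 and at 1008 and 286 CPM at P3. Tek, the angiopoietin receptor, stood at 688 and 1184 CPM, and Ptprb, the phosphatase that acts on Tek, at 648 and 845 CPM. Pecam1, an adhesion molecule of endothelial junctions, stood at 533 and 566 CPM. Adgrl4, an adhesion G protein-coupled receptor, was at 601 and 1108 CPM, Egfl7, a secreted vessel matrix protein, at 874 and 878 CPM, and Cyyr1 at 530 and 547 CPM. The median endothelial nucleus carried 6 of the 8 genes at E18.5 and 7 at P3, and 0.539% and 0.658% of its UMIs came from them. Of the nuclei outside the gate, 61.7% and 62.0% had no UMI from any of the 8 genes. The edge of the gate was not empty: 200 members at E18.5 and 82 at P3 lay between 0.2% and 0.3%, whereas 139 and 57 nuclei with 3 or more gate genes lay between 0.1% and 0.2%. The lowest members sat at 0.202% and 0.2004%, and the highest nuclei just outside at 0.199% and 0.1999%.

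**Figure D1:**
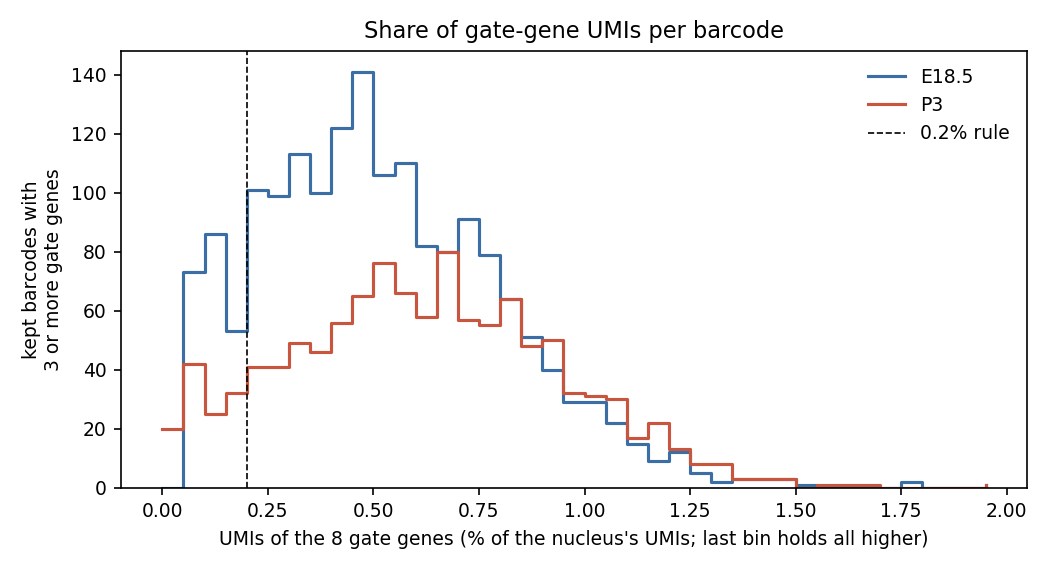
Share of a nucleus's UMIs that came from the 8 gate genes (x axis, percent) against the number of kept barcodes with at least 3 gate genes (y axis) at each age, with the 0.2% limit as a dashed line. Members spread around medians of 0.539% at E18.5 and 0.658% at P3, with 200 and 82 of them just above the limit.

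Endothelial genes that the gate did not use were also concentrated in these nuclei. Of 29 pan-endothelial genes with at least 20 CPM (30 listed), 26 at E18.5 and 28 at P3 were at least 2 times higher in endothelial than in other nuclei; of all genes at that level, 7.58% at E18.5 and 9.14% at P3 were. Their summed level was 6287 CPM against 883 CPM in other nuclei at E18.5, 7.12 times, and 7982 against 790 CPM at P3, 10.1 times. Cdh5, the VE-cadherin of adherens junctions, was at 171 CPM (95% Poisson interval 160 to 183) at E18.5 and 246 CPM (231 to 261) at P3, which was 8.72 and 30.6 times its level in other nuclei. Both levels were well above the other nuclei, and at P3 the level outside the gate was lower and the level inside higher than at E18.5.

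Further defining genes were also higher inside the gate at both ages. Tie1, the orphan partner of Tek, was at 124 and 144 CPM, 16.5 and 40.9 times other nuclei. Emcn, a sialomucin of capillaries and veins, was at 1061 and 1492 CPM, 15.3 and 31.5 times. Nos3, the endothelial nitric oxide synthase, was at 61.4 and 77.2 CPM, 20.9 and 50.1 times. Eng, a co-receptor for BMP9, was at 286 and 290 CPM with ratios of 10.1 and 11.8. Plvap, which forms the diaphragms of fenestrae, was at 92.8 and 101 CPM with ratios of 5.06 and 13.3. The ratio to other nuclei was higher at P3 for 26 of the 29 genes. In the other nuclei 23 of the 29 were lower at P3 than at E18.5, and within endothelial nuclei 11 of the 29 were. The exceptions below 2 times were Eml1 at both ages (1.37 and 1.32) and, at E18.5, the tight junction gene Cldn5 (1.26, then 3.92) and Ramp2, a receptor partner for adrenomedullin (1.68, then 5.38).

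**Figure D2:**
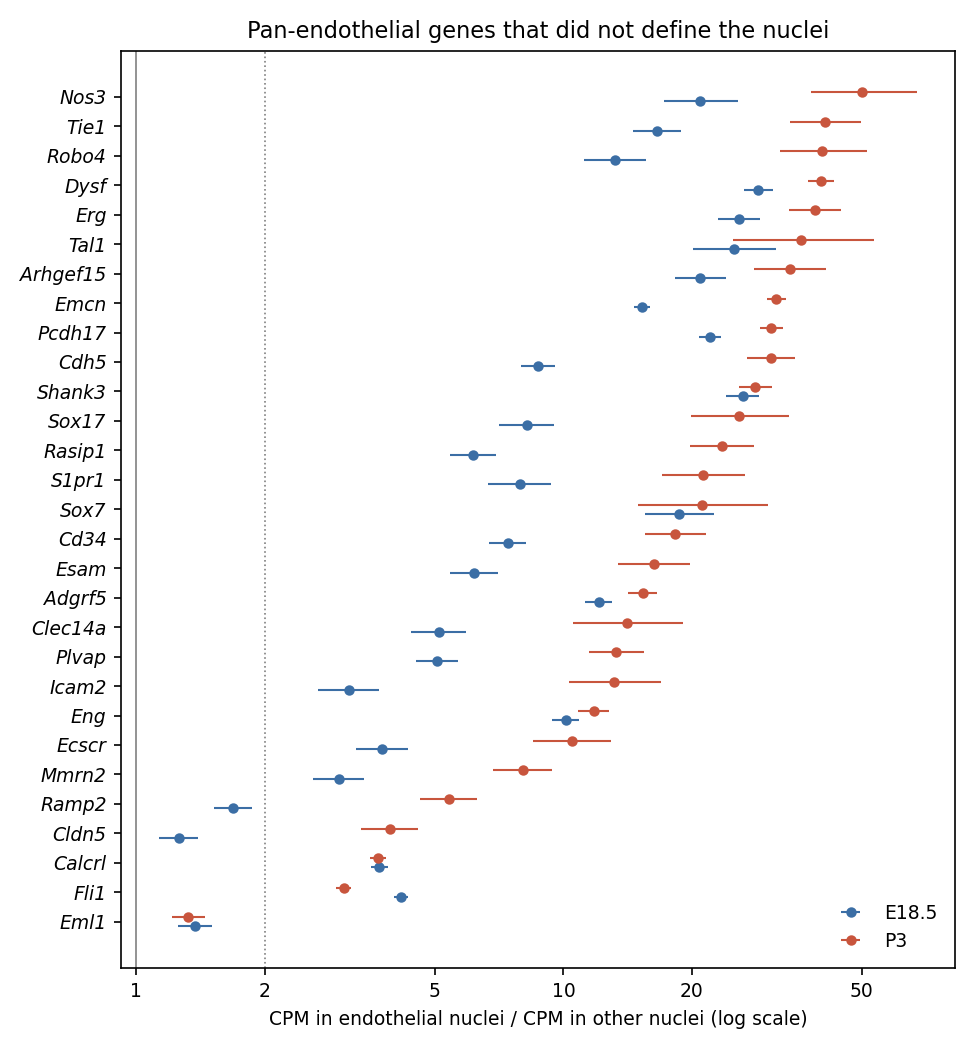
Ratio of CPM in endothelial to CPM in other nuclei (log axis) for the 29 pan-endothelial genes outside the gate at E18.5 and P3, with 95% counting intervals as lines and a dotted line at 2. Cdh5 lies at 8.72 and 30.6, and Eml1 lies below 2 at both ages, at 1.37 and 1.32.

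Transcripts of endothelial genes were also counted in nuclei of other types, which sets a background for shares of nuclei. After every nucleus was thinned to 1000 UMIs, Cdh5 had a UMI in 16.2% of endothelial nuclei at E18.5 and 22.9% at P3, against 1.92% and 0.745% of proximal tubule nuclei, which should lack it. Unthinned, the shares were 39.5% and 55.9% in endothelial nuclei (median 3115 and 3834.5 UMIs) and 5.81% and 2.86% in proximal tubule nuclei (median 3512 and 5601 UMIs). Erg, an ETS factor that maintains endothelial identity, had a thinned share of 18.9% and 21.8% against 0.479% and 0.248%. For both genes the endothelial share exceeded the proximal tubule share at each age.

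Among genes with at least 100 CPM outside the gate, Exoc3l2, which encodes a protein related to an exocyst subunit, had the highest ratio to other nuclei at both ages, at 228 and 348 CPM and 43.9 and 71.6 times. Rasgrp3, a Ras activator that responds to diacylglycerol, was at 325 and 376 CPM, 32.1 and 48.1 times. Dysf, the membrane repair protein dysferlin, was at 502 and 1022 CPM, 28.6 and 40.0 times. Entpd1, an ectoenzyme that hydrolyses extracellular ATP, reached 20.3 and 27.6 times, and F8, coagulation factor VIII, 17.6 and 12.9 times. Ratios of Inpp5d, an inositol phosphatase also used by leukocytes, were 22.0 and 11.2. Its level in endothelial nuclei was 204 and 240 CPM, and in leukocyte-gated nuclei 487 and 819 CPM.

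The promoters of 3 of these genes are shown as examples of an ETS match, for which they were chosen, and are not typical of the set. Outside the gate 37 genes had at least 100 CPM and at least 10 times the level of other nuclei at both ages, and 28 of them had 44 promoters in the RefSeq table (GRCm38.p6). Each promoter window ran 300 bases, from 250 before to 50 after the start. Letters that match ETS factor sites were searched on both strands. They were GGAAGT, then ACAGGAA with another flank, and CCGGAAG, and matches may overlap each other. At least 1 of them occurred in 17 of 44 endothelial promoters, of 15 of the 28 genes (38.6%, exact binomial 95% interval 24.4 to 54.5), and in 32.8% of all 32851 promoters. ACAGGAA alone occurred in 9 of 44 (20.5%, 9.80 to 35.3) against 8.67%, GGAAGT in 27.3% (14.96 to 42.8) against 23.8%, and CCGGAAG in 2.27% (0.0575 to 12.0) against 8.86%. For SOX factors ACAATGG was searched, as well as ACAAAGG, and either occurred in 9.09% against 9.28%, and the KLF letters CCACACCC in 2.27% against 3.56%. Several promoters belong to the same gene and overlap, and a match in letters is a description of the sequence only. The 250 bases upstream of the start are given 5′ to 3′ on the gene's strand, with the matching ETS letters in capitals, for Exoc3l2 (chr7:19463037-19463286, plus strand), Ushbp1 (chr8:71395802-71396051, minus strand) and Inpp5d (chr1:87620062-87620311, plus strand). These were the highest-ranked genes by ratio at E18.5 with a single promoter and an ETS match in the 250 bases shown. Genes on a chromosome left out of this choice were not considered.
Exoc3l2: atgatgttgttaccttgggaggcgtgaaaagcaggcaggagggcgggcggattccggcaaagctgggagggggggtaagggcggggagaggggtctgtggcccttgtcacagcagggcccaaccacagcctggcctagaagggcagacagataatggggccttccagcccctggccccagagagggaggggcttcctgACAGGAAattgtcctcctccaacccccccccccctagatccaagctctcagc
Ushbp1: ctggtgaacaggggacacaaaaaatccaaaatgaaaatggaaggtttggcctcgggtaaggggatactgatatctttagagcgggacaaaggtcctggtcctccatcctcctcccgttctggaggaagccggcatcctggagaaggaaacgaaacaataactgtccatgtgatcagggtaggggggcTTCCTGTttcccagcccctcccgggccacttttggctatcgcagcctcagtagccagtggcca
Inpp5d: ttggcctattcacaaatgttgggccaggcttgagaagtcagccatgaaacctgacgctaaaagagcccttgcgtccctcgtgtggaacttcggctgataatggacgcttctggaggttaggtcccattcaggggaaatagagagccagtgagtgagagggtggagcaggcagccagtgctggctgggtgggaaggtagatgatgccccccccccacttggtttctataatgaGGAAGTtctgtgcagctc

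Exoc3l2 and Inpp5d carried the match on the gene's own strand as ACAGGAA and GGAAGT, and Ushbp1 carried ACAGGAA on the opposite strand, printed as TTCCTGT. Ushbp1 stood at 154 and 144 CPM in endothelial nuclei, 26.9 and 28.0 times other nuclei.

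RNA of other kidney cell types was measured in the same nuclei. Leukocyte gate genes summed to 44.3 CPM at E18.5 and 53.5 CPM at P3 in endothelial nuclei, 0.725% and 0.765% of the level in leukocyte nuclei. Among them Ptprc, the pan-leukocyte antigen CD45, stood at 8.05 and 4.06 CPM. Mural gate genes summed to 8.10% and 5.08%, proximal tubule genes to 6.45% and 7.95%, and podocyte genes to 12.3% and 9.45% of the level in their own nuclei. The shares were 47.8% and 48.7% for interstitial genes, which include Ebf1, 11.7% and 4.37% for the collecting system, 5.35% and 3.50% for nephron progenitors and 2.03% and 3.40% for thick limb and distal tubule. In the podocyte sum the gene with most UMIs was Thsd7a, at 627 and 686 CPM, whereas the slit diaphragm gene Nphs1 stood at 43.1 CPM at E18.5 and 33.2 CPM at P3. Erythroid markers summed to 843 CPM at E18.5 and 162 CPM at P3, against 892 and 159 CPM in other nuclei, so that endothelial and other nuclei carried nearly the same amount at each age. Megakaryocyte markers summed to 13.5 and 9.71 CPM, and glia and neuron markers to 21.9 and 17.2 CPM.

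Some barcodes met 2 gates. The interstitial gate was also passed by 33.4% of endothelial nuclei at E18.5 and 31.3% at P3, but without Ebf1, a B cell and stromal transcription factor that stood at 1141 and 1678 CPM in endothelial nuclei, the shares were 6.53% and 2.34%. A gate other than the interstitial one was passed by 9.57% and 9.94%, and any other gate, the interstitial one included, by 40.3% and 38.8%. Doublet calling marked 18.48% of endothelial nuclei (280) at E18.5 and 20.96% (215) at P3, against 9.07% and 10.1% of all kept barcodes. These barcodes were kept, and each main result was also computed without them.

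Endothelial nuclei were clustered within each library, into 17 groups at E18.5 and 14 at P3. In 8 of them at E18.5 (424 nuclei, 28.0%) and 5 at P3 (233 nuclei, 22.7%) at least 25% of nuclei were called doublets, and genes of tubule, podocyte, mural or progenitor cells led most of these. A cluster led by podocyte genes held 44 nuclei at E18.5 with 61.4% called doublets and 9 at P3 with 55.6%, and one led by proximal tubule genes held 53 nuclei with 75.5% and 34 with 85.3%. The 9 clusters left at each age were compared by their leading genes. Clusters were built from the same counts, so their leading genes describe them and were not tested.

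An arterial-like cluster was found at both ages. It held 66 nuclei at E18.5 (4.36%, 3.38 to 5.51) and 50 at P3 (4.87%, 3.64 to 6.37), and 14 of 16 arterial markers were raised in it at each age. By the same rule 1 of 14 glomerular and 1 of 14 tip cell and angiogenic markers were raised at each age. For 12 peritubular capillary and fenestrated and 10 lymphatic markers the count was 0. Of 10 venous markers 1 and 0 were raised, and of 7 descending vasa recta markers 0 and 3. The share of all genes raised is not given here. The summed arterial level was 9038 CPM against 1647 CPM in the remaining endothelial nuclei at E18.5 and 12872 against 1428 CPM at P3. Of 30 leading genes 19 were shared between ages, among them Bmx, a tyrosine kinase of arterial endothelium, Gja5 and Gja4, arterial gap junction connexins, and Vegfc. Cxcl12, the ligand of CXCR4, stood there at 412 and 692 CPM and the arterial transcription factor Sox17 at 369 and 452 CPM. Plvap was at 32.1 and 39.1 CPM. Of 8 podocyte gate genes 3 were raised in the cluster at both ages, Thsd7a (2435 and 3267 CPM), Synpo (268 and 112 CPM) and Clic5 (155 and 117 CPM). The podocyte sum was 3162 CPM against 1013 CPM in the remaining endothelial nuclei at E18.5 and 3585 against 973 CPM at P3, while Nphs1 stood at 32.1 and 0 CPM (upper limit 20.6). Another lineage gate was passed by 59.1% and 46.0% of its nuclei, and a gate other than the interstitial one by 30.3% and 10.0%. Without the nuclei that passed any other gate the cluster at P3 held 28 nuclei.

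The other low-doublet clusters had no set of subtype markers that gave a name and are described by their leading genes. The largest cluster of each age, with 274 nuclei at E18.5 (18.1%) and 173 at P3 (16.9%), had none of the subtype markers raised. These clusters shared 2 of 30 leading genes, Sema5b and Ephb1, and 0 of the first 10, and are not taken as the same population. Their summed arterial markers were 0.438 and 0.382 times those of the other endothelial nuclei of that age. A cluster of 59 nuclei at E18.5 had a median of 1316 UMIs per nucleus and a median gate share of 0.275%. In it 4 of 8 interstitial, 2 of 8 proximal tubule, 2 of 8 collecting system and 3 of 8 erythroid markers were raised. A cluster led by Prnd, Prdm1, St8sia4, Vash1 and Nr5a2 held 120 nuclei at E18.5 (7.92%) and 131 at P3 (12.8%) and shared 13 of 30 leading genes. Its summed tip cell and angiogenic markers were 1.86 and 1.76 times those of the other endothelial nuclei, with 2 of 14 raised at each age (Esm1 and Mcam, then Apln and Lama4). The Notch ligand Dll4, the 1 arterial marker raised in it, stood at 48.0 and 38.7 CPM. Prnd, the prion-like protein doppel, stood at 66.0 and 59.3 CPM there, and Prdm1, a transcriptional repressor, at 135 and 67.0 CPM. A cluster with Egfem1, Nlgn1 and Shisa9 held 140 nuclei at E18.5 and 149 at P3 and shared 14 of 30. Nlgn1, a neuroligin adhesion protein, reached 3915 and 6287 CPM in it and Emcn 1564 and 2513 CPM.

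A cluster with Htr2a, a serotonin receptor, and Ripor2 held 87 and 116 nuclei and shared 6 of 30 leading genes. Ehd3, a trafficking protein used as a marker of glomerular endothelium, stood at 92.6 CPM in it at E18.5 and 49.4 CPM at P3. Of 14 glomerular markers Ehd3 alone was raised at E18.5 and 0 at P3, while their sums were 1.87 and 1.72 times those of the other endothelial nuclei. Its peritubular capillary and fenestrated sums, Kdr and Tek included, were also higher, at 1.54 and 1.49 times. At P3 the genes with the highest ratio to the other endothelial nuclei were Mrc1, the mannose receptor of macrophages, at 54.4 CPM (6.63 times) and Arhgap15, a Rac-inactivating protein of leukocytes, at 54.4 CPM (4.66 times), ahead of Htr2a. With Csf1r, the macrophage colony-stimulating factor receptor, at 24.7 CPM, 3 of 8 leukocyte gate genes were raised, while Ptprc stood at 7.41 CPM and C1qa at 0 CPM (upper limit 9.11). Its leukocyte gate sum was 178 CPM against 41.0 CPM in the other endothelial nuclei, and the part of leukocyte RNA in the cluster was not tested. A cluster with Mybpc1 and Tmtc1 held 75 and 22 nuclei, shared 5 of 30 and carried Aqp1, a water channel of descending vasa recta, at 73.3 CPM (42.7 to 117) at E18.5. Its summed arterial markers were 1.63 and 0.687 times those of the other endothelial nuclei, with Mecom and Edn1 raised at E18.5. The glomerular sums in it were 1.82 and 1.18 times, with Hecw2 raised at both ages and Fam167b at P3. At P3 Aqp1 had no UMI in it, which allows up to 42.6 CPM, and stood at 89.3 CPM in the arterial-like cluster. In the arterial-like cluster at P3 3 of 7 descending vasa recta markers were raised (Slc14a1, Aqp1 and Scin), and their sum was 313 CPM against 112 CPM in the other endothelial nuclei. In the cluster with Mybpc1 the summed descending vasa recta markers were 280 CPM against 114 CPM in the other endothelial nuclei at E18.5. At P3 they were 555 against 112 CPM there, and Akr1b3, an aldose reductase, was the marker raised. Erythroid markers in the cluster with Mybpc1 at P3 were 6.38 times those of the other endothelial nuclei.

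Smaller clusters were also compared. A cluster with Myrip, Hs3st4 and Masp1 held 33 and 26 nuclei and shared 14 of 30. At both ages 4 of 16 arterial markers (Fbln5, Fbln2, Eln and Mecom) and 2 of 10 venous ones (Vwf and Ackr3) were raised in it, and it was left unnamed. The podocyte gate genes Synpo and Thsd7a were also raised in it at both ages, and the podocyte sums were 1.68 and 2.47 times those of the other endothelial nuclei. Vwf, the von Willebrand factor, stood at 110 and 336 CPM in it and at P3 the selectin gene Selp at 67.1 CPM and the matrix gene Fbln2 at 660 CPM. Prox1, the transcription factor of lymphatic identity, led a cluster of 51 nuclei at E18.5 (149 CPM) and appeared among the leading genes of one of 25 nuclei at P3 (146 CPM). By leading genes the E18.5 cluster was not paired with that P3 cluster. Its closest P3 cluster, with 3 of 30 shared, held 101 nuclei led by Dgkb, of which 89.1% were called doublets. Of 10 lymphatic markers 3 were raised at E18.5 (Prox1, Reln and Mmrn1) and 2 at P3 (Prox1 and Reln), and their sums were 3.34 and 2.28 times those of the other endothelial nuclei. In the P3 cluster 3 of 14 tip cell and angiogenic markers were also raised (Angpt2, Unc5b and Lama4), with a sum of 1.56 times. Of the E18.5 cluster with Prox1 51.0% was called doublet and of the P3 one 4.0%. In the P3 one 84.0% of nuclei had 3 or more G2/M UMIs, so neither was given a lymphatic name. A mitotic cluster held 237 nuclei at E18.5 and 101 at P3, of which 87.3% and 90.1% had at least 3 G2/M UMIs after thinning.

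**Figure D3:**
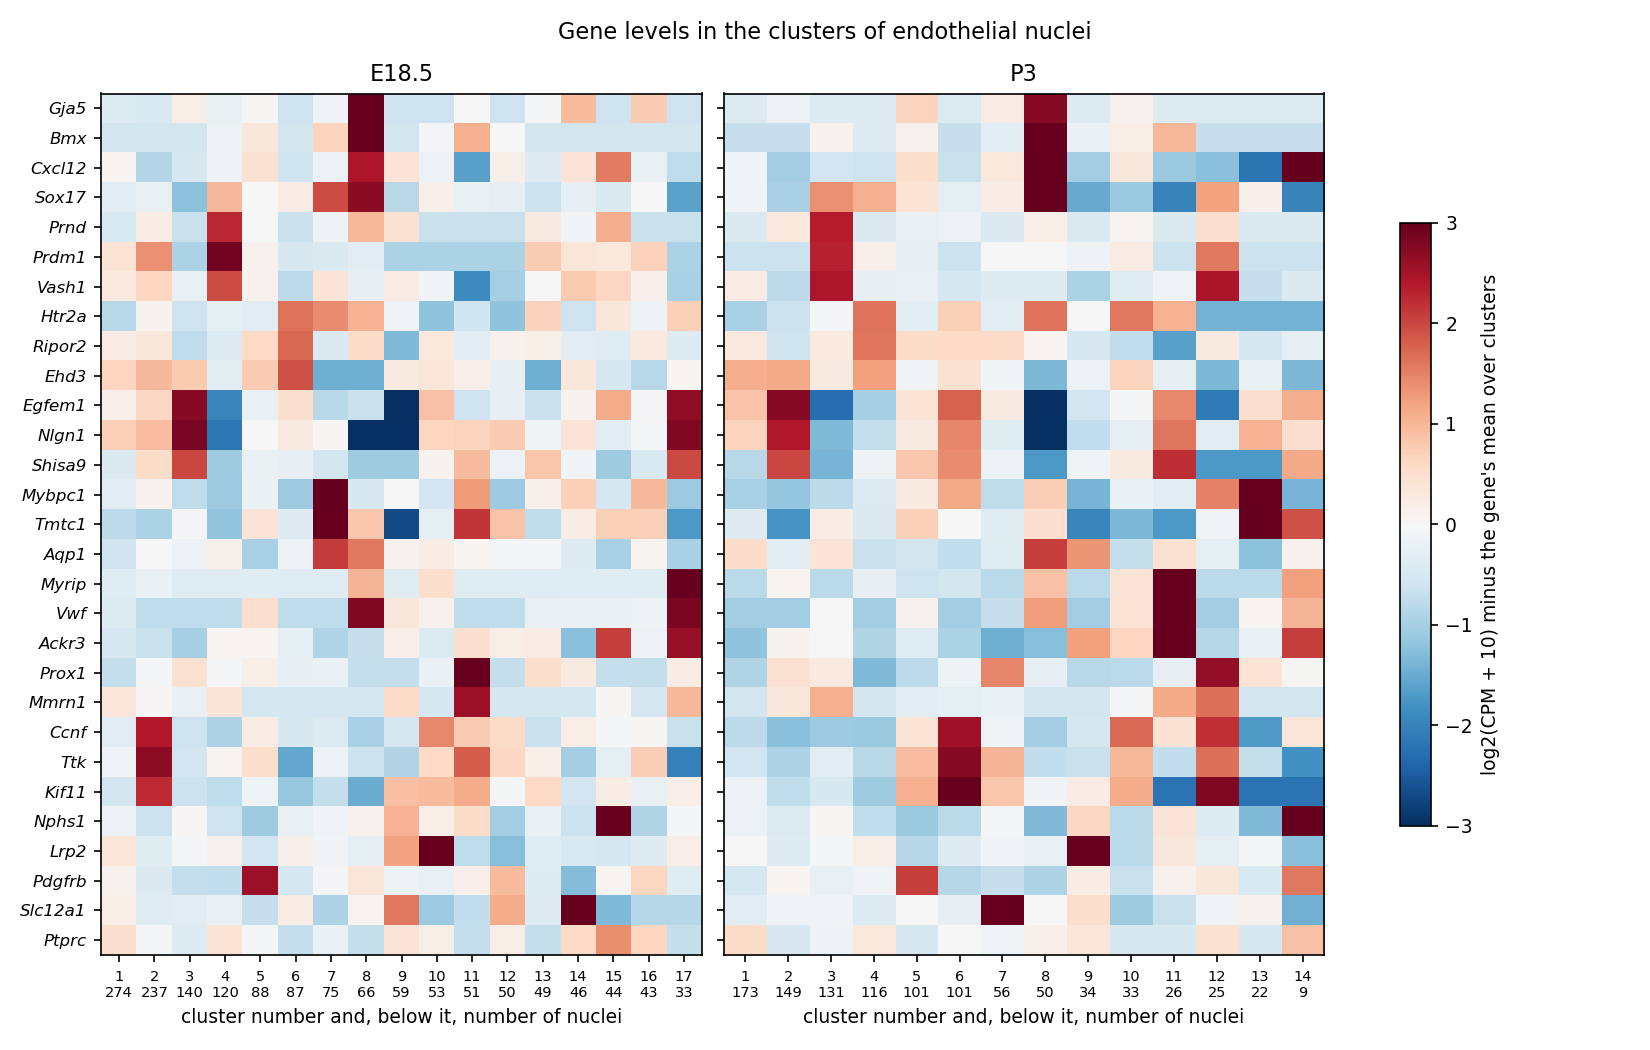
Levels of selected genes in all 17 endothelial clusters at E18.5 and all 14 at P3, as log2(CPM + 10) minus the gene's mean over the clusters of that age, with the number of nuclei under each cluster number. Gja5, Bmx and Sox17 are highest in the arterial-like clusters of 66 and 50 nuclei.

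Between the ages, most endothelial genes differed by less than 2 times. Of 8670 genes with at least 20 CPM at either age, 187 (2.16%) were at least 2 times higher at P3 and 889 (10.3%) at least 2 times higher at E18.5. The median log2 ratio of P3 to E18.5 was -0.08 in endothelial and -0.08 in other nuclei. Gene span moved with the ratio in both populations. Genes under 10 kb had a median log2 ratio of -0.86 in endothelial and -0.89 in other nuclei, whereas genes over 200 kb had medians of 0.44 and 0.37. Ratios between ages are therefore given with the ratio in other nuclei, and the part of gene span in single genes was not tested.

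Ranking named 15 genes in each direction among 539 genes with at least 50 CPM at one age and at least 2 times the level of other nuclei at the age where they were higher. These values chose the genes and are a description. The highest ratios at P3 belonged to Sybu and Col13a1. Sybu, which links syntaxin cargo to kinesin, stood at 17.5 CPM at E18.5 and 88.0 CPM at P3, 5.03 times (3.97 to 6.42), against 1.74 times in other nuclei. Col13a1, a transmembrane collagen, stood at 14.9 and 72.7 CPM, 4.88 times (3.78 to 6.37), against 1.03. Both had passed the filter at P3, where they stood at 15.2 and 3.74 times other nuclei, against 5.25 and 0.787 times at E18.5.

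Further genes higher at P3 included a guidance ligand and a nuclear receptor. Sema3d, a secreted semaphorin, stood at 100 and 279 CPM, 2.77 times (2.50 to 3.08), against 1.45 in other nuclei. Rarb, a retinoic acid receptor, stood at 309 and 764 CPM, 2.47 times (2.33 to 2.63), against 1.32. Nuak1, a kinase related to AMPK, was at 43.9 and 127 CPM, 2.90 times against 1.43. Lhx6, a LIM homeobox factor, was 3.24 times higher (2.64 to 4.00), with other nuclei at 2.60. The filter on the level in other nuclei favours genes whose ratio exceeds that of other nuclei, so nothing is read from that excess.

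Within clusters, Sybu stood at 256 CPM in the P3 cluster with Egfem1 and at 39.5 CPM in its E18.5 counterpart. Lhx6 stood at 216 CPM (180 to 257) and 56.8 CPM (36.04 to 85.3) in the same pair. In the clusters with Myrip, Lhx6 was at 291 CPM (190 to 426) at P3 and 276 CPM (186 to 394) at E18.5, intervals that overlap. Rarb stood at 1294 CPM in the P3 cluster with Egfem1 and at 514 CPM in its E18.5 counterpart.

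Genes higher at E18.5 included caveolar and interferon-stimulated genes. Cav1, the main caveolar coat protein, stood at 62.4 CPM at E18.5 and 19.2 CPM at P3, 0.307 times (0.239 to 0.392), and other nuclei showed 0.392 times. Oasl2 stood at 156 and 51.5 CPM, 0.329 times (other nuclei 0.475), and Ifi44 at 190 and 70.7 CPM, 0.372 times (0.326 to 0.423), against 0.196 in other nuclei. Both are interferon-stimulated genes. Sparcl1, a secreted matrix protein, was at 93.0 and 31.4 CPM, 0.337 times, against 0.739. Thinned, its ratio was 0.566 (0.402 to 0.788), against 0.732 in other nuclei. Acer2, an alkaline ceramidase, was at 322 and 131 CPM, 0.406 times, against 0.661. For genes higher at E18.5 the same filter favours ratios below those of other nuclei, so nothing is read from such a difference.

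Pparg, a nuclear receptor that controls lipid uptake genes, stood at 69.3 and 31.2 CPM, 0.450 times (0.366 to 0.550), where other nuclei showed 1.23 times. With every nucleus thinned to 1000 UMIs the endothelial ratio was 0.708 (0.487 to 1.02), which no longer passed 2 times and reached 1. In the E18.5 cluster with Egfem1 Pparg stood at 205 CPM.

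**Figure D4:**
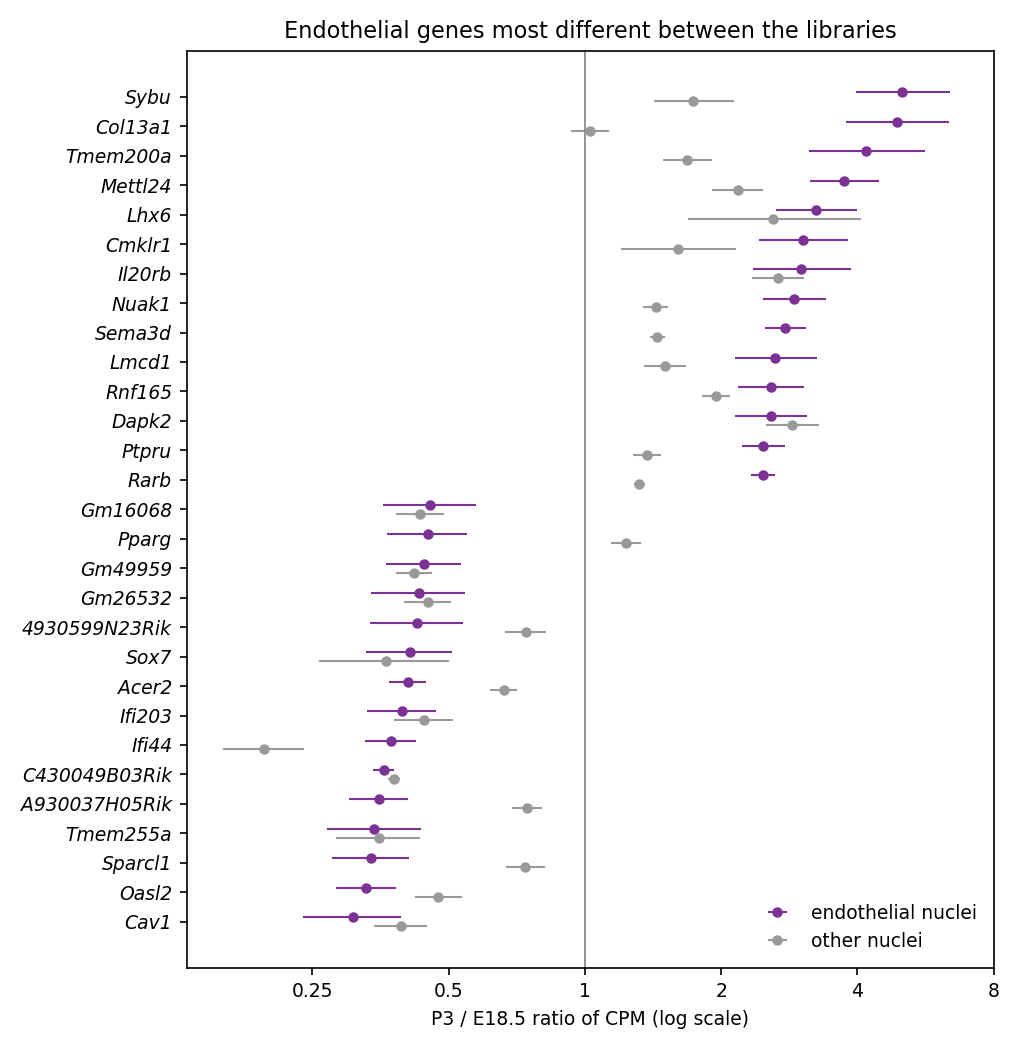
P3 to E18.5 ratio of CPM (log axis) of ranked genes, 14 higher at P3 and 15 higher at E18.5, in endothelial nuclei and in other nuclei, with 95% counting intervals as lines. Sybu lies at 5.03 against 1.74 and Pparg at 0.450 against 1.23; thinned, the endothelial ratio of Pparg was 0.708.

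Pathway genes mostly lay within 2 times between ages. Of 307 tested, 4 (1.30%) were at least 2 times higher at P3 and 26 (8.47%) at E18.5, beside 2.16% and 10.3% of all genes. Of the 307, 6 were gate genes, whose levels only describe the choice of nuclei, and none of the 6 passed in either direction. The count at P3 ran from 1 to 9 over the processing alternatives. With every nucleus thinned, 3 of the 4 and 21 of the 26 still passed, and Kcnn3, Sparcl1, Pparg, Lin28b, Meg3 and Sox7 did not. Of 29 endothelial transcription factors (42 listed) 2 were higher at E18.5, Sox7 (0.410 times, other nuclei 0.363) and Foxc1 (0.339 times, 0.439), and the list median log2 ratio was 0.10 against -0.21 in other nuclei. With every nucleus thinned, Sox7 was at 0.512 times and no longer passed. Sox17 stood at 63.2 and 53.3 CPM, 0.843 times (other nuclei 0.268), and Erg at 215 and 246 CPM, 1.14 times (0.761).

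Ligand and receptor lists were close to level. Of 14 VEGF and Tie genes (17 listed) 4 were gate genes (Flt1, Kdr, Tek and Ptprb). None of the 10 others passed 2 times, with a median log2 of 0.28 against -0.06. Angpt2, the angiopoietin that antagonises Tek in remodelling vessels, was at 0.558 times (0.615), and Flt4, the receptor for VEGFC, at 1.35 times (0.638). None of 14 Notch and ephrin genes (21 listed) passed, with medians of 0.01 and -0.13. Efnb2, an arterial ephrin ligand, stood at 352 and 199 CPM, 0.566 times, against 0.519 in other nuclei, whereas Notch1 stood at 119 CPM at both ages, 0.993 times, against 0.759.

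Of 20 TGF-beta and BMP genes (21 listed) Ltbp4, which tethers latent TGF-beta, was 2.22 times higher at P3 (other nuclei 1.28). Id1 and Id3, targets of BMP signalling, were at 0.454 and 0.444 times (other nuclei 0.535 and 0.482). Smad7, an inhibitory Smad, was at 0.530 times against 0.903. Of 15 Wnt and Norrin genes (19 listed) only Slc2a1, the glucose transporter GLUT1, passed, higher at E18.5 (0.263 times, other nuclei 0.328). It is also the gene that passed among 11 solute transport genes (19 listed). Of 21 semaphorin, Robo, netrin and plexin genes (23 listed) only Sema3d passed, and the median log2 was 0.38 against 0.10. Plxnd1, the endothelial receptor for Sema3e, was 1.62 times higher at P3 against 0.847 in other nuclei.

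Vessel structure and function lists were described the same way. Without the gate gene Pecam1, none of 21 junction and adhesion genes (27 listed with it) passed 2 times (median log2 0.14 against -0.17). Of 13 genes of fenestrae and caveolae (15 listed) Cav1 and Cav2 (0.345 times, other nuclei 0.380) were higher at E18.5, and Ehd4 was 1.78 times higher at P3 (1.20). Of 24 basement membrane and matrix genes (25 listed) only Sparcl1 passed, and with every nucleus thinned it did not (0.566 times). Collagen IV gene Col4a1 stood at 529 and 724 CPM, 1.37 times, against 1.30 in other nuclei. Of 14 nitric oxide, endothelin and prostanoid genes (22 listed) Agtr1a, an angiotensin II receptor, was 2.21 times higher at P3 and 2.62 times in other nuclei.

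Without the gate gene Adgrl4, none of 13 G protein-coupled and S1P receptor genes (24 listed with it) passed, with a median log2 of 0.10 against -0.61. Aplnr, the apelin receptor, was at 36.2 and 72.5 CPM, just under 2 times, against 0.474. Of 15 flow and calcium channel genes (22 listed) Kcnn3, a calcium-activated potassium channel, passed at 2.03 times (other nuclei 1.80) but not with every nucleus thinned (1.63), and the mechanosensitive channel Piezo2 stood at 649 and 1124 CPM, 1.73 times against 1.11. None of 9 coagulation genes (17 listed) passed (median log2 -0.52 against -0.42). Of 9 lipid handling genes (19 listed) Fabp5, a fatty acid binding protein (0.277 times, other nuclei 0.1996), and Pparg were higher at E18.5, and Fabp4 stood at 412 and 240 CPM, 0.582 times, against 0.157.

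Antigen presentation and interferon genes and imprinted genes held the most genes higher at E18.5. Of 11 interferon and antigen genes (20 listed) 6 passed, namely B2m, Ifi44, Ifitm2, Ifitm3, Bst2 and Ly6a, with a median log2 of -1.25 in endothelial and -1.09 in other nuclei. Of 16 imprinted and fetal growth genes (18 listed) 8 passed, with medians of -1.02 and -0.75. H19, an imprinted non-coding RNA, stood at 114 and 19.6 CPM, 0.173 times, and Cdkn1c, a cell cycle inhibitor, at 436 and 107 CPM, 0.245 times. Their ratios in other nuclei were 0.245 and 0.291.

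Proliferation genes were counted per nucleus after thinning to 1000 UMIs. At least 3 UMIs of G2/M genes were found in 26.5% of endothelial nuclei at E18.5 (24.3 to 28.8) and 18.6% at P3 (16.3 to 21.1), against 22.0% and 13.3% of other nuclei. Unthinned, the shares were 55.7% and 40.9% in endothelial nuclei. With at least 2 G2/M UMIs after thinning they were 40.2% and 26.9%. Podocyte nuclei stood at 11.2% and 8.96%, proximal tubule nuclei at 11.7% and 6.02%, and nephron progenitor nuclei at 28.0% at E18.5. Endothelial nuclei thus lay above podocyte and proximal tubule nuclei at both ages. At least 3 S phase UMIs were found in 18.55% and 19.8% of endothelial nuclei and in 15.3% and 12.1% of other nuclei. Of 23 G2/M genes (24 listed) Aurka, a mitotic kinase (0.364 times, other nuclei 0.386), and Ccnb1, cyclin B1 (0.475 times, 0.452), were at least 2 times higher at E18.5, and of 21 S phase genes (23 listed) none passed.

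**Figure D5:**
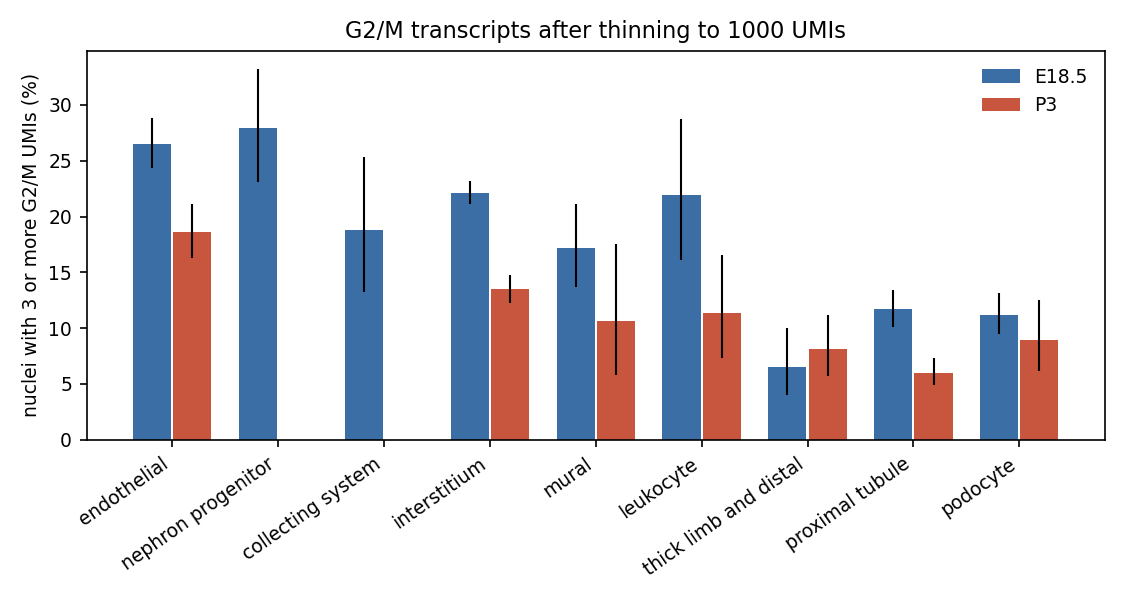
Share of nuclei (percent) with at least 3 G2/M UMIs after thinning, by population and age, with 95% exact binomial intervals as lines and no bar for populations under 50 nuclei. Endothelial nuclei stand at 26.5% and 18.6%, above podocyte and proximal tubule nuclei at both ages.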

How the data were processed

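Nuclei from snap-frozen mouse kidneys were sequenced with a 10x Genomics 3′ kit, 1 library per age (E18.5 and P3). The deposited files hold UMI counts per gene and barcode, not normalized; per the submitters' processing notes Cell Ranger 5.0.1 and mm10 were used, and the header of the E18.5 file names 7.0.0. Whether intronic reads were counted is not given in the sources used here. Barcodes with 1000 to 6000 UMIs (E18.5) or 1000 to 10000 (P3) and at most 0.6% mitochondrial UMIs were kept: 21600 barcodes held 423 below, 2307 above and 197 over the mitochondrial limit at E18.5, and 12216 held 1233, 1573 and 121 at P3.

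UMIs were summed over nuclei and divided by total UMIs (CPM). Intervals are 95% exact Poisson for levels, Clopper-Pearson for shares and conditional binomial for ratios. The rule for named genes took the 20 genes with the highest ratio to other nuclei per age and the 15 highest ratios in each age direction, besides fixed lists. A list gene passed at a 2-fold ratio with at least 20 CPM. Members and lists were chosen with earlier results of these data known. Doublets were called with Scanpy 1.11.5 (Scrublet, expected rate 0.1). Clusters used 1500 variable genes, 20 components, 15 neighbours and Leiden resolution 1 (leidenalg 0.10.2); a marker was raised at 2 times the other endothelial nuclei with at least 10 UMIs. Scripts used Python 3.11.15, NumPy 2.4.6, SciPy 1.17.1 and pandas 2.3.3 and were tested on simulated data. Alternatives covered the gate, doublets, mixed barcodes, thinning, scaling, low-count limits and clustering. No columns of comparisons were used. Results on a few genes are not reported here.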

Additional observations from a re-analysis of the deposited data

Results flagged for a closer look

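Col13a1 had an endothelial to other ratio of 0.787 at E18.5 and 3.74 at P3, on opposite sides of 1, and the difference was not tested. Col13a1 was ranked because it was at least 2 times other nuclei at P3, so the value at P3 restates that choice. Pparg had a P3 to E18.5 ratio of 0.450 in endothelial nuclei and 1.23 in other nuclei, in opposite directions, which was also not tested with 1 library per age. Pparg was chosen for its low endothelial ratio and for a level at least 2 times other nuclei at E18.5, which favours such a contrast. Its endothelial ratio was 0.708 (0.487 to 1.02) with every nucleus thinned.

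Barcodes left out above the upper UMI limit also carried endothelial signal. The gate was passed by 324 of 2307 of these barcodes at E18.5 (14.0%, 12.7 to 15.5) and by 150 of 1573 at P3 (9.54%, 8.13 to 11.1). Below the lower limit 3.78% and 1.22% passed.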

How the results depend on the processing

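No paired analysis was possible because each age had 1 library and no result came from a test. Of 156 alternative values for the main results 122 stayed within their error or within 1.5 times and 34 moved. A change of direction was not looked for among these values. The endothelial share at E18.5 was 8.86% with a gate of 0.1%, 5.90% with 0.4%, 7.63% with at least 4 gate genes and 8.77% without the upper UMI limit, and at P3 9.14% with 0.4%. Removing called doublets gave 7.27% and 9.72%, removing barcodes that passed any other gate gave 904 nuclei (4.84%) and 628 (6.76%), and removing those that passed a gate other than the interstitial one, chosen after seeing the data, gave 7.34% and 9.95%.

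The summed pan-endothelial ratio was 7.81 and 11.8 without doublets, 7.28 and 10.9 without barcodes of any other gate, 7.29 and 10.7 without those of gates other than the interstitial one, 6.71 and 9.65 after thinning, and at E18.5 7.004 with the 0.4% gate and 7.28 with size factors. Pathway genes at least 2 times higher at P3 numbered 9 with the 0.4% gate, 7 with size factors, 8 from 5 CPM, 1 from 50 CPM and 7 without clusters of at least 25% doublets, the last chosen after seeing the data. With at least 2 G2/M UMIs the shares were 40.2% and 26.9%. The mitotic cluster held 148 nuclei at E18.5 and 157 at P3 with a larger set of variable genes, so the order of the ages turned. Without barcodes of other gates the mitotic cluster held 136 at E18.5, and the arterial-like cluster at P3 held 28. Of 210 values for the 30 genes ranked by age ratio 19 moved, 10 of them under thinning, and 0 reversed. Thinning brought 8 of them within 2 times, namely Pparg (0.708), 4930599N23Rik (0.636), Gm16068 (0.607), Sparcl1 (0.566), Tmem255a (0.552), Gm49959 (0.513), Sox7 (0.512) and Lmcd1 (1.92); the cause was not tested. With 1 library per age, depth limits the counting error only, not the spread between kidneys.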

Other observations

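Subtype marker lists were also counted over all endothelial nuclei. Of all genes with at least 20 CPM at either age, 2.16% were at least 2 times higher at P3 and 10.3% at E18.5. Of 10 arterial genes with at least 20 CPM 1 was at least 2 times higher at P3 and 0 at E18.5, with a median log2 ratio of 0.24 against 0.02 in other nuclei. Of 9 peritubular capillary and fenestrated genes, 2 of them the gate genes Kdr and Tek, 1 was higher at P3 (median 0.57 against 0.07, the same without the gate genes), and of 10 glomerular genes 1 was, Ptprg (median -0.24 against 0.00). The glomerular sum went against its median, at 2010 CPM at E18.5 and 3571 CPM at P3, 1.78 times (1.73 to 1.82), of which Ptprg, a receptor phosphatase, made up 1403 and 3003 CPM, 2.14 times (other nuclei 1.43). The other sums at P3 were 0.982 (arterial), 0.952 (venous), 1.38 (peritubular capillary and fenestrated, Kdr and Tek included), 0.991 (descending vasa recta), 1.10 (lymphatic) and 1.34 (tip cell and angiogenic) times those at E18.5. Of 8 tip cell and angiogenic genes and 4 venous genes 0 passed in either direction (medians 0.38 and -0.07). Of 3 lymphatic genes 1 was higher at E18.5, and of 2 descending vasa recta genes 0 passed. Edn1, the endothelin-1 ligand, stood at 15.3 CPM at E18.5 and 4.97 CPM at P3, 0.325 times (0.192 to 0.527), against 0.911 in other nuclei, and was named after its values were seen.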
